A study of Mus musculus with 8 samples.

Results

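The ADAM, ADAMTS and ADAMTS-like genes code for a family of membrane-bound and secreted zinc metalloproteases and their relatives without a protease domain. Members were all probe sets that carry a single gene symbol made of Adam, Adamts or Adamtsl plus digits, with a letter suffix allowed. The rule found 82 probe sets of 48 genes among 45037 probe sets and 18193 named genes. There were 46 probe sets of 28 Adam genes, 28 probe sets of 15 Adamts genes and 8 probe sets of 5 Adamtsl genes. Of the 82 probe sets, 47 were on the MOE430A array and 35 on the MOE430B array. RefSeq lists 58 protein-coding mouse genes with such a symbol, and the other 10 were not analysed here.

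Cells of mouse hind limb muscle were grown as 4 primary cultures, and the RNA of each was hybridised to both array types. The 2 MACS cultures (replicates 2 and 3) were bead-sorted to keep cells with Sca1, an antigen of progenitor cells in muscle, and to remove cells with CD45, found on leukocytes. The 2 PP6 cultures (replicates 2 and 3) were prepared by preplating, which collects slowly adhering cells by moving the unattached ones from dish to dish. All 4 were grown in F10 Ham medium with 20% serum. Neither a genotype, strain, age nor number of animals is given in the labels used here. RNA concentrations of replicates 2 and 3 were 55 and 65 ng/µl in MACS and 35 and 15 ng/µl in PP6. The cell counts given were higher for both PP6 cultures than for both MACS cultures. The part of RNA amount or cell number in the values below was not tested. By flow cytometry, Sca1 marked over 80% and CD45 under 1% of the cells of the MACS cultures, no purity is stated for the PP6 cultures, and muscle cells are named as the contaminating cells of both.

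ADAM proteins sit in the cell membrane, where the active members cut other membrane proteins close to the surface, a step called shedding that releases growth factors, cytokines and receptor fragments. ADAMTS proteases are secreted, bind to the extracellular matrix through thrombospondin repeats and cut proteoglycans, procollagens and microfibril-associated proteins. ADAMTS-like proteins keep the repeats, lack the protease domain and bind fibrillin microfibrils. In muscle the family is known for ADAM12 in regenerating fibres and myoblasts, and for versican-cleaving ADAMTS proteases in the matrix around fusing myoblasts.

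The labels of the cultures were set beside marker genes. Of 13 leukocyte markers, 5 lay above the array median in all 4 cultures, 1 (Itgam) lay below it in all 4, and none had a signal of 0. Their summed linear signal was 9262 and 9708 in MACS and 20263 and 56472 in PP6. The summed signal of 16 genes of differentiated muscle was 7001 and 7522 in MACS and 33123 and 86227 in PP6. The 6 muscle precursor genes gave 13631 and 14979 in MACS and 15199 and 12621 in PP6, but single genes went opposite ways. Of the 5 tested, 3 had a positive and 2 a negative PP6 minus MACS difference on the log2 scale. Pax7 differed by -1.56 and Des by 1.27, with -0.28 on another Des probe set. Every sum is in the order of replicates 2 and 3. The Sca1 gene was not analysed here. Values below are log2 signals, and levels were read only against the median of all probe sets of the same array, which lay at 9.14 to 9.30 on MOE430A and at 9.60 to 9.79 on MOE430B. In these bulk cultures, fewer cells of a type and less RNA per cell cannot be told apart.

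Many members gave little signal in these cultures. A total of 36 of the 82 probe sets (43.9%) lay below the array median in all 4 cultures, against 37.1% of all probe sets. The ADAMs known mainly from testis and epididymis held 14 of these 36, out of their 18 probe sets (77.8%). For 21 of the 48 genes, every probe set lay below the median in all 4 cultures. The background was 8794 of 28285 genes, with each unnamed probe set counted as a gene. At the other end, 25 of the 82 probe sets, of 20 genes, lay above the median in all 4, against 16827 of all 45037 probe sets. Testing required a signal above the array median in 2 or more of the 4 cultures. That filter kept 38 member probe sets of 24 genes, or 46.3% of the members against 53.2% of all probe sets. One probe set of Adam12 passed it through the PP6 cultures alone, and none through the MACS cultures alone.

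**Figure D1:**
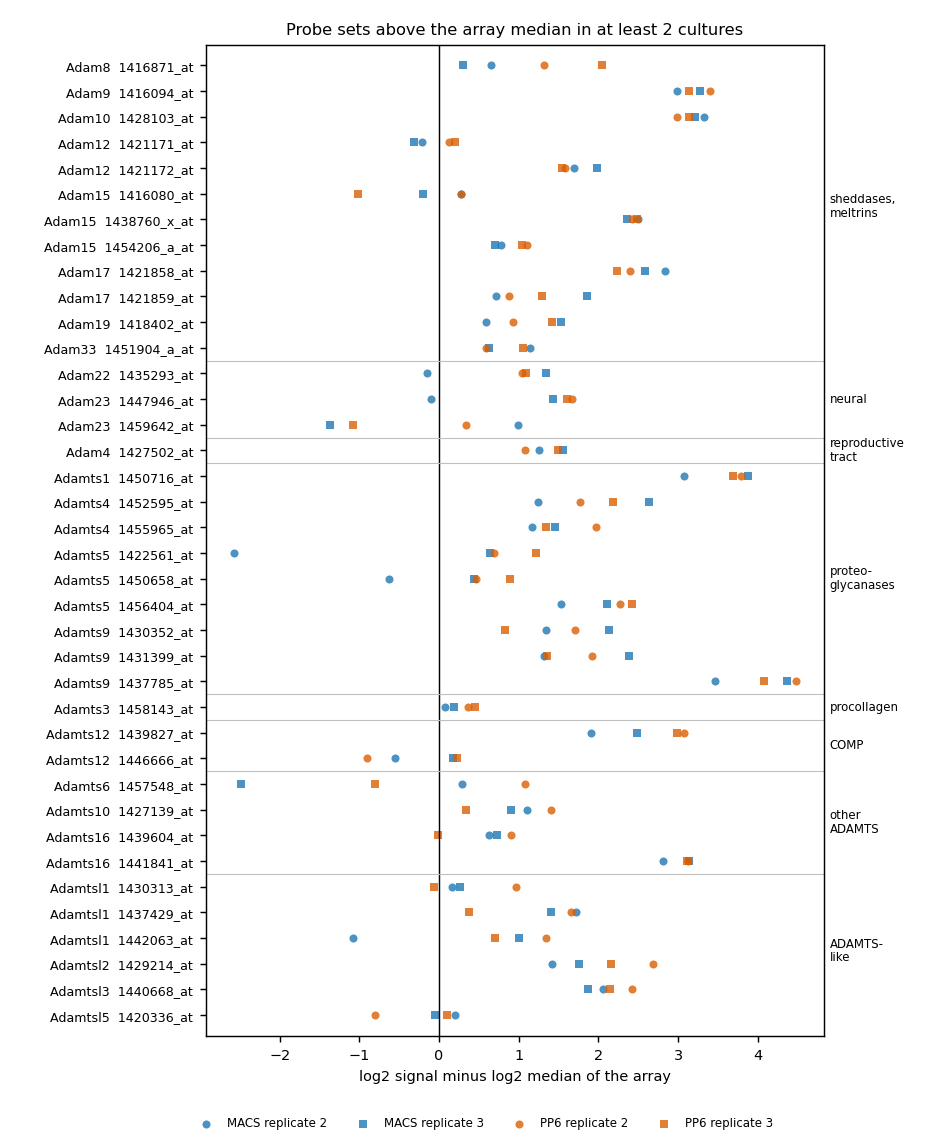
Log2 signal relative to the array median (x axis) of each of the 38 tested member probe sets (rows) in the 4 cultures (points: MACS and PP6, replicates 2 and 3). Adamts9, Adamts1, Adam10 and Adam9 each have a probe set above the array median in every culture, and the Adamts5 probe set 1422561_at has 1 MACS culture far below its other 3 cultures.

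No member passed the threshold of 0.05 after Benjamini-Hochberg adjustment in limma, where the background was 0% of all tested probe sets. The lowest adjusted p of a member was 0.332. At an unadjusted p under 0.05 in the same limma fit, 3 of the 38 members (7.89%) were higher in PP6, against 5.69% of all tested probe sets, and 0 were lower, against 5.83%. The 3 were Adam8, Adamts12 and Adamtsl2. The count of 3 is close to the background share, and it changed when a culture was left out. These p-values measure the spread between the deposited cultures, since the labels used here do not say whether the replicates came from separate animals.

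The differences were more often positive than negative. In 25 of 38 tested members (65.8%) the mean of PP6 was above that of MACS, against 51% of all tested probe sets. The median difference was 0.26 on the log2 scale, against 0.01 over all tested probe sets. The groups did not overlap in 13 members (34.2%) that were higher in PP6, where the background was 22.5%, and in 1 (2.63%) that was lower, where it was 21.7%. Probe sets of the same gene were counted separately, and the 13 include all 3 tested ones of Adamts5 and more than 1 of Adam15. Both the 25 and the 13 include the Adam12 probe set that passed the filter through PP6 alone, for which this outcome was fixed by the filter. Among all tested probe sets, 684 passed through PP6 alone and 741 through MACS alone. The median of the members lay between 0.12 and 0.41 when 1 culture was left out. In 27 of 38 members (71.1%) the larger gap between replicates exceeded the difference between the groups, as in 69.3% of all tested probe sets. Measured as the median deviation of the 38 members from their own means, MACS replicate 2 stood at -0.25, MACS replicate 3 at 0.02, PP6 replicate 2 at 0.24 and PP6 replicate 3 at 0.16.

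**Figure D2:**
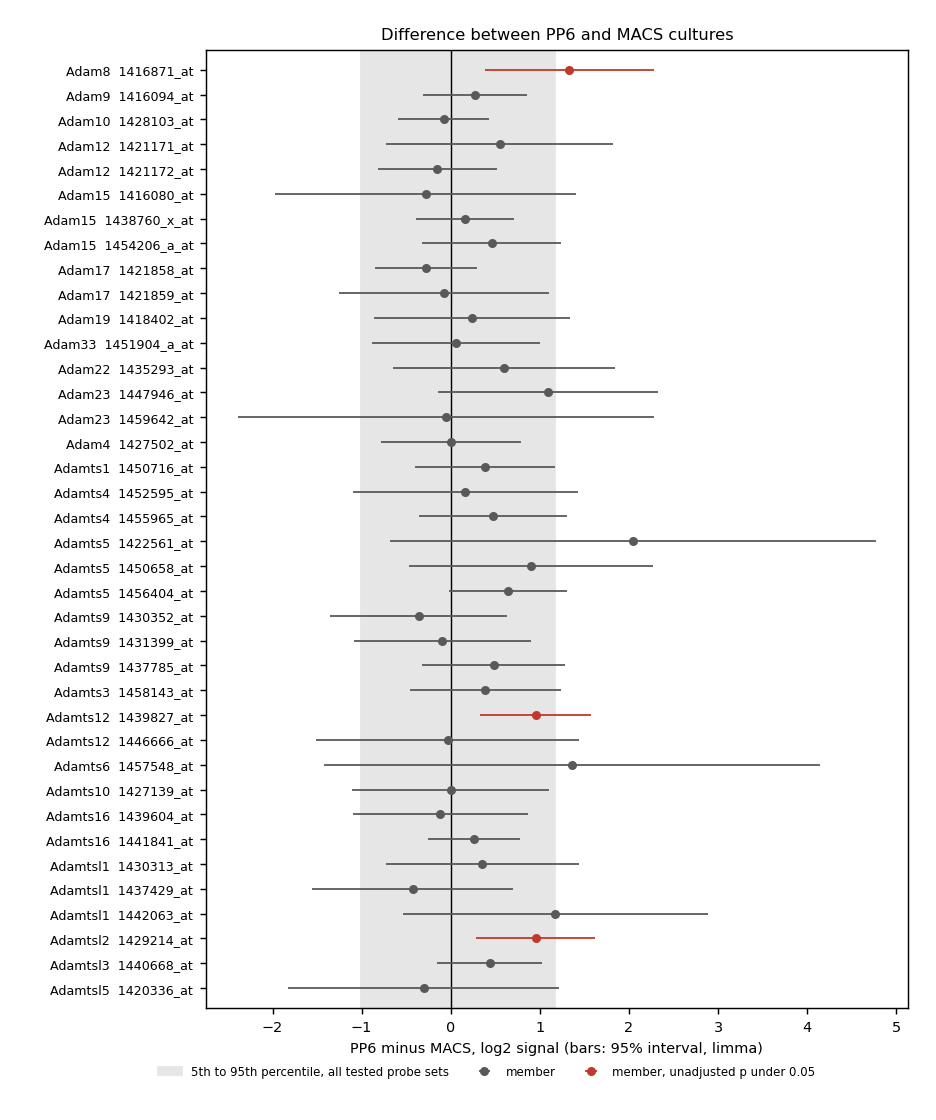
PP6 minus MACS difference in log2 signal (x axis) of the 38 tested member probe sets (rows, by role), with 95% intervals from limma (bars) and a grey band from the 5th to the 95th percentile of all tested probe sets (-1.01 to 1.17). Intervals of Adam8, Adamts12 and Adamtsl2 lie above 0, no interval lies below 0, and no member passed the adjusted threshold.

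Adam8 codes for a membrane protease known from neutrophils, macrophages and other leukocytes, and also reported in regenerating mouse muscle. Its log2 signal was 9.79 and 9.48 in MACS and 10.59 and 11.34 in PP6. Both PP6 cultures were above both MACS cultures. The difference was 1.33 ± 0.38 (SE) with a 95% interval from 0.38 to 2.28, or 2.51-fold, with an unadjusted p of 0.0146 and an adjusted p of 0.344 in limma. The difference was 0.95 without PP6 replicate 3 and 1.17 without MACS replicate 3, with unadjusted limma p of 0.0976 and 0.0534. Leukocyte genes differed the same way: all 12 tested of 13 were higher in PP6 on average (median difference 2.26). For 5 of the 12, the filter was passed through PP6 alone, which fixed their sign. The tested probe sets of Csf1r ranged from -0.49 to 1.05. The summed signal of 9 neutrophil granule genes was 4511 and 6272 in MACS and 109693 and 387043 in PP6. Ptprc, which codes for CD45, had log2 signals of 8.25 and 8.67 in MACS and 9.71 and 11.43 in PP6. It was among the 5 leukocyte genes that passed the filter through PP6 alone. PP6 replicate 3 was the highest culture for Adam8, for Ptprc and for the leukocyte sum. It was also the highest for the sums of neutrophil granule genes and of differentiated muscle genes. The part of leukocyte, neutrophil or muscle RNA in the Adam8 difference was not tested.

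Adamts12 codes for a secreted protease that cleaves cartilage oligomeric matrix protein. The log2 signal of 1439827_at was 11.58 and 12.09 in MACS and 12.80 and 12.78 in PP6. The groups did not overlap, and the PP6 cultures differed from each other by less than the MACS cultures. The difference was 0.95 ± 0.25 with a 95% interval from 0.33 to 1.58, or 1.93-fold, with an unadjusted p of 0.0102 and an adjusted p of 0.332 in limma. It ranged from 0.70 to 1.20 when 1 culture was left out. A second, dimmer Adamts12 probe set, 1446666_at, had log2 signals of 9.13 and 9.78 in MACS and 8.83 and 10.02 in PP6, with overlapping groups and a difference of -0.04 ± 0.59.

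Adamtsl2 codes for an ADAMTS-like glycoprotein that binds fibrillin and latent TGF-beta binding protein. Its log2 signal was 11.10 and 11.35 in MACS and 12.42 and 11.95 in PP6. Both PP6 cultures were above both MACS cultures. The difference was 0.95 ± 0.27 with a 95% interval from 0.28 to 1.62, or 1.93-fold, with an unadjusted p of 0.0136 and an adjusted p of 0.338 in limma. It was 0.72 without PP6 replicate 2 and 0.83 without MACS replicate 2, with unadjusted limma p of 0.089 and 0.0516. Fibroblast markers were also higher in PP6: 8 of 9 were higher on average (median difference 1.23), and their summed signal was 64004 and 114708 in MACS and 197405 and 192570 in PP6. All 9 fibroblast markers lay above the array median in every culture. Mural cell markers had 6 of 6 positive differences, a median of 0.78 and summed signals of 25607 and 34674 in MACS and 47432 and 43667 in PP6. The part of fibroblast or mural cell RNA in the Adamts12 and Adamtsl2 differences was not tested.

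The promoters of these 3 genes are printed because they are the members with an unadjusted p under 0.05. The sequences come from RefSeq on GRCm38.p6, 5′ to 3′ on the strand of the gene, 300 bases each. They lie at chr7:139992513-139992812 on the minus strand for Adam8, at chr15:11064523-11064822 on the plus strand for Adamts12 and at chr2:27079129-27079428 on the plus strand for Adamtsl2. Capitals mark matches, on either strand, to CAGCTG (an E-box bound by myogenic factors), TGANTCA (AP-1), TATAAA (the TATA box) and GAGGAA (the core bound by PU.1, a leukocyte factor).
Adam8: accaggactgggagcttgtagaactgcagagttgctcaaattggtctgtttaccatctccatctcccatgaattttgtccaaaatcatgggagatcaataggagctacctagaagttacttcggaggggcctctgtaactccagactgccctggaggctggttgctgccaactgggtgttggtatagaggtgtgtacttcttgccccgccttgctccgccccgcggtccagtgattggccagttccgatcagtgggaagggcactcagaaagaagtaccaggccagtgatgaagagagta
Adamts12: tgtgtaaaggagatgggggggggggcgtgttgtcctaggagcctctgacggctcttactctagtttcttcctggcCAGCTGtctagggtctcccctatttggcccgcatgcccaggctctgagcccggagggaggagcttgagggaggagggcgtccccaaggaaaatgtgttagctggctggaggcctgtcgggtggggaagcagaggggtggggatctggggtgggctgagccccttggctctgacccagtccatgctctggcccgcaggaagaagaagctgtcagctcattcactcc
Adamtsl2: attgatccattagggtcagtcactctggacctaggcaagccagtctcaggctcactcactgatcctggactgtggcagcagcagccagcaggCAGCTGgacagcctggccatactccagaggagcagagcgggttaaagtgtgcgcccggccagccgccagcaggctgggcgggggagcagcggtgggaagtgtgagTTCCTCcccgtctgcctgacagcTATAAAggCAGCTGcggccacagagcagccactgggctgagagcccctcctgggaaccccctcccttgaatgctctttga
The Adam8 window held none of the 4 motifs. The Adamts12 window held 1 CAGCTG, and the Adamtsl2 window held 2 CAGCTG, 1 TATAAA and 1 GAGGAA, the last of these on the other strand. No bases of the matches overlapped. Over 32851 mouse promoters of this length, CAGCTG was present in 16.3%, TGANTCA in 7.81%, TATAAA in 13.6% and GAGGAA in 28.3%. Among 26 such promoters of 24 member genes, tested or not, 6 held CAGCTG, 3 TGANTCA, 4 TATAAA and 5 GAGGAA. A match describes the letters of the window and is no measurement of binding.

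The general sheddases had small differences with intervals that included 0. Adam10, the main sheddase of Notch receptors, had log2 signals of 12.46 and 12.40 in MACS and 12.26 and 12.44 in PP6 for its tested probe set. The groups overlapped, and the difference was -0.08 ± 0.21 with a 95% interval from -0.60 to 0.43. The 3 other Adam10 probe sets did not pass the filter and went the other way, with differences of means of 0.38, 0.34 and 0.13. The first of these, 1450104_at, lay below the array median in every culture and was higher in PP6 without overlap. Adam17, which releases TNF and several EGF receptor ligands, had log2 signals of 11.98 and 11.77 in MACS and 11.68 and 11.53 in PP6 for 1421858_at. This was the only tested member whose PP6 cultures both lay below both MACS cultures, with a difference of -0.28 ± 0.23. The second Adam17 probe set, 1421859_at, had 9.85 and 11.05 in MACS and 10.16 and 10.59 in PP6, with overlapping groups and a difference of -0.07 ± 0.47. The untested Adam17 probe set, 1421857_at, lay below the array median in every culture and went the other way. It had 8.27 and 8.61 in MACS and 8.72 and 8.99 in PP6, higher without overlap.

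Partners that carry these sheddases to the surface, the iRhoms and FRMD8 for ADAM17 and the TspanC8 tetraspanins for ADAM10, showed no common direction. Of 9 genes measured, 8 were tested, 3 had a positive and 5 a negative difference, and the median was -0.08. None had an unadjusted p under 0.05 in limma, where the background over 12278 genes was 5.81% higher and 5.44% lower. The tetraspanin Tspan17 had the largest difference of the list, 1.64 ± 0.95, and Tspan15 had a difference of -0.36.

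Adam9, Adam12 and Adam19 code for the meltrins, which were first known from myoblasts and act in shedding and cell adhesion. Adam9 (1416094_at) was bright in every culture, with log2 signals of 12.13 and 12.46 in MACS and 12.68 and 12.43 in PP6. Its groups overlapped, and the difference was 0.27 ± 0.23. Adam12 is a marker of regenerating muscle and of activated mesenchymal cells, and its brighter probe set, 1421172_at, had 10.83 and 11.17 in MACS and 10.86 and 10.84 in PP6. The difference was -0.15 ± 0.27, with overlapping groups. The dimmer Adam12 probe set, 1421171_at, had 8.93 and 8.87 in MACS and 9.40 and 9.49 in PP6 and did not overlap between groups, but it passed the filter through PP6 alone. Its difference was 0.55 ± 0.51, of the opposite sign to that of the brighter probe set. Genes of differentiated muscle stood beside it: all 14 tested of 16 had a positive difference, and the median was 3.91. For 10 of the 14, Acta1 among them, the filter was passed through PP6 alone, which fixed their sign. The untested Myh8 went the other way, with log2 signals of 7.48 and 8.01 in MACS and 4.34 and 7.10 in PP6. In Myl1, also untested, the groups overlapped. Acta1, skeletal muscle actin, had log2 signals of 8.50 and 8.84 in MACS and 12.22 and 13.96 in PP6. The part of muscle RNA in the Adam12 values was not tested. Adam19, also known from heart valve development, had 9.73 and 10.72 in MACS and 10.21 and 10.72 in PP6, with overlapping groups and a difference of 0.24 ± 0.44.

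Adam15 and Adam33 each had a probe set above the array median in all cultures, and Adam28 was above it in none. Adam15, a membrane ADAM of endothelial and many other cells, was brightest on 1438760_x_at, with log2 signals of 11.63 and 11.54 in MACS and 11.71 and 11.78 in PP6. The groups did not overlap, and the difference was 0.16 ± 0.22. A second Adam15 probe set, 1454206_a_at, had 9.92 and 9.89 in MACS and 10.39 and 10.34 in PP6, also without overlap, and a difference of 0.46 ± 0.32. The third, 1416080_at, had 9.42 and 8.98 in MACS and 9.55 and 8.29 in PP6, with overlapping groups and a difference of -0.28 ± 0.68. Adam33, known from airway smooth muscle and fibroblasts, had 10.28 and 9.81 in MACS and 9.87 and 10.35 in PP6, and its difference of 0.06 ± 0.38 was smaller than the gap between either pair of replicates. Both probe sets of Adam28, an ADAM of lymphocytes, lay below the median in every culture, with log2 signals between 4.41 and 8.30.

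Adam11, Adam22 and Adam23 code for ADAMs without protease activity that are known from neurons, where ADAM22 and ADAM23 bind the secreted protein LGI1. Adam22 (1435293_at) had log2 signals of 9.53 and 10.94 in MACS and 10.78 and 10.89 in PP6. MACS replicate 2 was low and the other 3 cultures were close together, with a difference of 0.59 ± 0.50. Adam23 (1447946_at) showed the same pattern, with 9.59 and 11.03 in MACS and 11.40 and 11.40 in PP6. Its groups did not overlap, and the difference was 1.09 ± 0.50, with an unadjusted p of 0.074 in limma. On the other tested Adam23 probe set, 1459642_at, the log2 signals were 10.67 and 8.23 in MACS and 10.07 and 8.72 in PP6, so replicate 2 was above replicate 3 in both groups, and the difference was -0.06 ± 0.94. Neither Adam11 probe set passed the filter. The untested Adam22 probe set, 1451812_at, lay below the array median in every culture. It went the other way, with 7.56 and 8.32 in MACS and 6.84 and 6.84 in PP6, lower without overlap. Schwann cell markers, the only neural list examined, had summed signals of 2310 and 3395 in MACS and 7218 and 6993 in PP6, and their part in the Adam23 values was not tested.

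The ADAMs known mainly from testis and epididymis were dim. Of 16 such genes with 18 probe sets, 14 genes lay below the array median in every culture with all their probe sets. Of the 16, only Adam4 was tested, with log2 signals of 10.40 and 10.74 in MACS and 10.36 and 10.78 in PP6 and a difference of 0.00 ± 0.32. Adam1b, which pairs with the Adam2 product on mouse sperm, lay above the median in 1 culture on each of its 3 probe sets and did not pass the filter. Adam25 was the dimmest member, with 1.64 and 1.19 in MACS and 5.45 and 4.66 in PP6. Its PP6 cultures were far above its MACS cultures, but all 4 values lay well below the median, where the signal carries no detection call. Adam7, Adam32, Adam18 and Adam5 also had PP6 values above MACS values, and Adam2 had PP6 values below, all beneath the median in every culture. Over all 44 untested member probe sets, 11 were higher in PP6 without overlap (background 23.6%), 5 were lower (background 12.8%) and 28 overlapped.

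**Figure D3:**
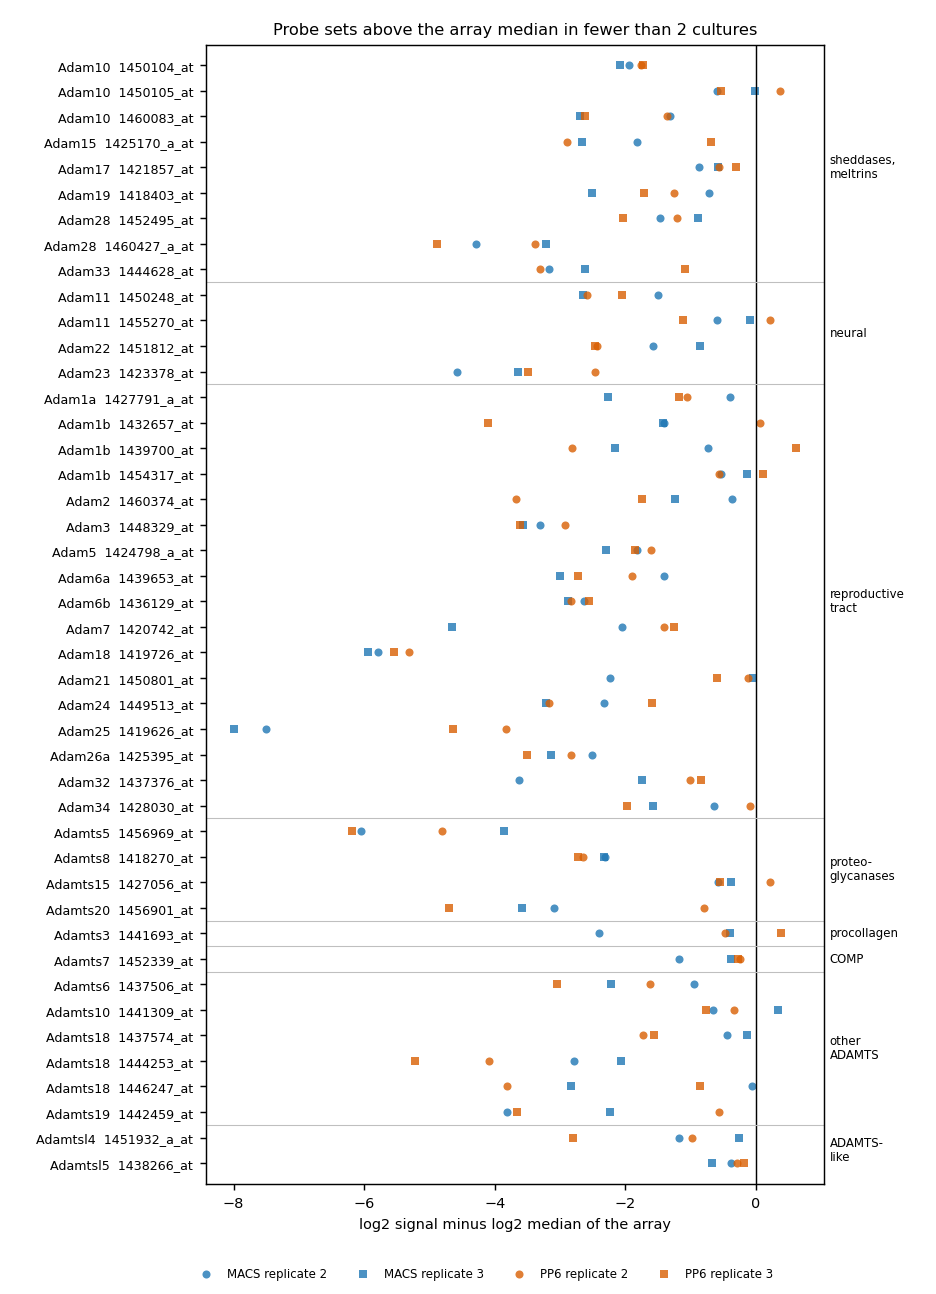
Log2 signal relative to the array median (x axis) of each of the 44 member probe sets that did not pass the filter (rows) in the 4 cultures (points). Of these, 36 lie left of the median in all 4 cultures, and Adam25 lies farthest below it.

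Among the ADAMTS proteases that cleave aggrecan and versican, Adamts1, Adamts4, Adamts5 and Adamts9 each had a probe set above the array median in all cultures. For Adamts5 this held for 1456404_at alone. Adamts8, Adamts15 and Adamts20 had no tested probe set. The 9 tested probe sets of this group had a median difference of 0.47, and 7 were positive. Adamts5, whose product clears versican around fusing myoblasts in mouse, had all 3 of its tested probe sets higher in PP6 without overlap. Its brightest, 1456404_at, had log2 signals of 11.22 and 11.71 in MACS and 12.00 and 12.22 in PP6, with a difference of 0.64 ± 0.27, a 95% interval from -0.025 to 1.31, an unadjusted p of 0.0565 and an adjusted p of 0.45 in limma. Next, 1450658_at had 8.51 and 9.63 in MACS and 9.75 and 10.19 in PP6, with a difference of 0.90 ± 0.55. The third, 1422561_at, had 6.57 and 9.82 in MACS and 9.97 and 10.51 in PP6, with a difference of 2.05 ± 1.10. MACS replicate 2 was the lowest culture on all 3 probe sets, and it lay below the array median on 1450658_at and 1422561_at. Without it the 3 differences were 0.39, 0.34 and 0.42, and without MACS replicate 3 they were 0.89, 1.46 and 3.67. The last Adamts5 probe set lay below the median in every culture, with overlapping groups.

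Adamts1, the neighbour of Adamts5 on chromosome 16, codes for a protease of versican that is induced in inflammation and ovulation. Its log2 signals of 12.22 and 13.07 in MACS and 13.07 and 12.99 in PP6 were low in MACS replicate 2 and close together in the other 3 cultures, so the groups overlapped. The difference was 0.38 ± 0.32, and it was -0.04 without MACS replicate 2. Adamts9, a versican protease also needed for vascular development in mouse, was brightest on 1437785_at. That probe set had 13.15 and 13.97 in MACS and 14.20 and 13.87 in PP6 and a difference of 0.48 ± 0.32, again with MACS replicate 2 lowest. The other 2 Adamts9 probe sets had differences of -0.10 ± 0.40 and -0.36 ± 0.40, and their log2 signals were 11.00 and 11.99 in MACS and 11.65 and 11.15 in PP6 for 1431399_at and 11.03 and 11.74 in MACS and 11.43 and 10.62 in PP6 for 1430352_at. The groups overlapped in all 3 Adamts9 probe sets. Adamts4, the first aggrecanase described, had 10.38 and 11.82 in MACS and 11.05 and 11.48 in PP6 on 1452595_at and 10.30 and 10.64 in MACS and 11.25 and 10.64 in PP6 on 1455965_at. Its differences were 0.16 ± 0.51 and 0.47 ± 0.34.

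The remaining ADAMTS genes had differences of either sign. Adamts3, which removes the N-terminal propeptide of procollagen and activates VEGF-C, had log2 signals of 9.76 and 9.80 in MACS and 10.09 and 10.24 in PP6. The groups did not overlap, and the difference was 0.39 ± 0.34. Adamts16, a protease best known from kidney and gonad, was bright on 1441841_at, with 12.50 and 12.74 in MACS and 12.86 and 12.90 in PP6, no overlap and a difference of 0.26 ± 0.21. Its other tested probe set, 1439604_at, had 10.32 and 10.33 in MACS and 10.64 and 9.78 in PP6 and a difference of -0.12 ± 0.39. Adamts6 and Adamts10 code for proteases associated with fibrillin microfibrils. Adamts6 had 9.97 and 7.12 in MACS and 10.81 and 8.99 in PP6, with replicate 2 far above replicate 3 in both groups and a difference of 1.36 ± 1.12. The untested Adamts6 probe set, 1437506_at, lay below the array median in every culture. Its groups overlapped, and its difference of means was -0.63. Adamts10 had 10.24 and 10.08 in MACS and 10.69 and 9.64 in PP6 and a difference of -0.00 ± 0.44. Adamts7, which like Adamts12 cleaves cartilage oligomeric matrix protein, lay below the median in every culture, as did Adamts19. All 3 probe sets of Adamts18 also lay below it, 2 of them lower in PP6 without overlap. The brighter of these 2, 1437574_at, had 9.24 and 9.46 in MACS and 8.00 and 8.23 in PP6.

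Of the ADAMTS-like genes, Adamtsl4 alone had no tested probe set. Adamtsl3 (1440668_at), like Adamtsl2, was higher in both PP6 cultures, with log2 signals of 11.74 and 11.47 in MACS and 12.15 and 11.93 in PP6. Its difference of 0.44 ± 0.24 was smaller than that of Adamtsl2. Adamtsl1, also called punctin, had tested probe sets that disagreed. On 1437429_at it had 11.40 and 11.00 in MACS and 11.39 and 10.16 in PP6 and a difference of -0.43 ± 0.46. On 1442063_at it had 8.61 and 10.61 in MACS and 11.07 and 10.50 in PP6 and a difference of 1.17 ± 0.69, with MACS replicate 2 far below the rest, and on 1430313_at it had 9.85 and 9.87 in MACS and 10.69 and 9.73 in PP6 and a difference of 0.35 ± 0.44. Adamtsl5 (1420336_at) was low in PP6 replicate 2, with 9.35 and 9.13 in MACS and 8.47 and 9.39 in PP6, and the difference was -0.31 ± 0.61. The untested Adamtsl5 probe set, 1438266_at, lay below the array median in every culture. It had 9.30 and 8.93 in MACS and 9.44 and 9.60 in PP6, higher without overlap. Across the family, 10 genes had several tested probe sets, and their signs differed in 7: Adam12, Adam15, Adam23, Adamts9, Adamts12, Adamts16 and Adamtsl1. The signs of the tested probe sets agreed in Adam17, Adamts4 and Adamts5, though an untested probe set of Adam17 and of Adamts5 had the opposite sign.

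Genes that act on or with the family were described from lists, with 1 probe set for each gene, and none of their genes passed the adjusted threshold in limma. The inhibitors had only positive differences: all 5 tested of 7 were higher in PP6 on average (median difference 1.08), and 2 were higher at an unadjusted p under 0.05. Over all genes, 51.4% of differences were positive and 5.81% were higher at that p. Timp2 had log2 signals of 12.83 and 13.08 in MACS and 14.07 and 13.99 in PP6, a difference of 1.08 ± 0.20, and its tested probe sets ranged from 0.08 to 1.96. Timp3, the TIMP that inhibits ADAM17 and aggrecanases, had 9.85 and 9.97 in MACS and 10.85 and 11.21 in PP6, a difference of 1.12 ± 0.30, with probe sets from 0.05 to 1.12. For both genes the groups did not overlap. Among the proprotein convertases, which remove the prodomain of ADAM and ADAMTS zymogens, 2 differences were positive and 2 negative. Furin differed by -0.01, and Pcsk5, which passed the filter through PP6 alone, by 2.39 ± 0.53.

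Substrates of the membrane proteases had median differences below 0. Of the EGF receptor ligands released by shedding, 4 of 6 measured genes were tested, 2 with a positive and 2 with a negative difference, and the median was -0.44. Hbegf had log2 signals of 12.31 and 12.05 in MACS and 10.55 and 10.84 in PP6, a difference of -1.48 ± 0.25. Ereg had 9.85 and 10.63 in MACS and 9.23 and 8.55 in PP6, a difference of -1.35 ± 0.51. The positive differences were 0.57 ± 0.32 for Tgfa, whose tested probe sets ranged from -0.38 to 0.57, and 0.47 ± 0.40 for Btc. Hbegf and Ereg were lower at an unadjusted p under 0.05 in limma, and 0 ligands were higher, where the background over all genes was 5.44% lower and 5.81% higher. Of 22 other shed membrane proteins, 19 were tested, 8 positive and 11 negative, with a median of -0.12. At an unadjusted p under 0.05, 2 of the 19 were higher and 2 lower. Jag1, a Notch ligand, differed by -0.96 ± 0.28 and Notch2 by -0.83 ± 0.30, while Notch3 differed by 0.93 ± 0.36 and the TNF receptor gene Tnfrsf1a by 0.56 ± 0.19. Endothelial markers, which stand beside the lower values in PP6, had 9 of 9 tested differences negative, a median of -0.44 and summed signals of 50889 and 42155 in MACS and 30366 and 30542 in PP6. Cdh5 is both in the list of shed membrane proteins and among the endothelial markers, and Notch3 is also among the mural cell markers. The part of endothelial or mural cell RNA in these values was not tested.

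Matrix proteins cut by ADAMTS proteases were more often higher in PP6. Of 16 genes, 15 were tested, 12 with a positive and 3 with a negative difference, and the median was 0.88, against 51.4% positive over all genes. At an unadjusted p under 0.05, 7 were higher and 1 was lower, against 5.81% and 5.44% of all genes, and 2 of the 15 passed the filter through PP6 alone. Col1a1 differed by 2.17 ± 0.35 and fibronectin (Fn1) by 1.06 ± 0.20. Vcan, the versican gene, differed by -0.13 on the probe set used, and by up to 1.11 on another. Vwf, an endothelial product cut by ADAMTS13, differed by -1.04 ± 0.26. Several of these genes, the collagens and decorin among them, are also fibroblast markers. Of 6 measured partners of the ADAMTS-like proteins, 5 were tested, and all 5 differences were positive (median 0.54). The untested partner was Ltbp1, a latent TGF-beta binding protein gene, which lay the other way, with log2 signals of 9.66 and 8.86 in MACS and 4.54 and 5.97 in PP6. At an unadjusted p under 0.05, 1 partner was higher and 0 were lower. This was Mfap2, a microfibril glycoprotein, with 7.60 and 7.61 in MACS and 11.12 and 10.19 in PP6, a difference of 3.05 ± 0.60, and it passed the filter through PP6 alone. Its other probe set differed by -0.35.

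**Figure D4:**
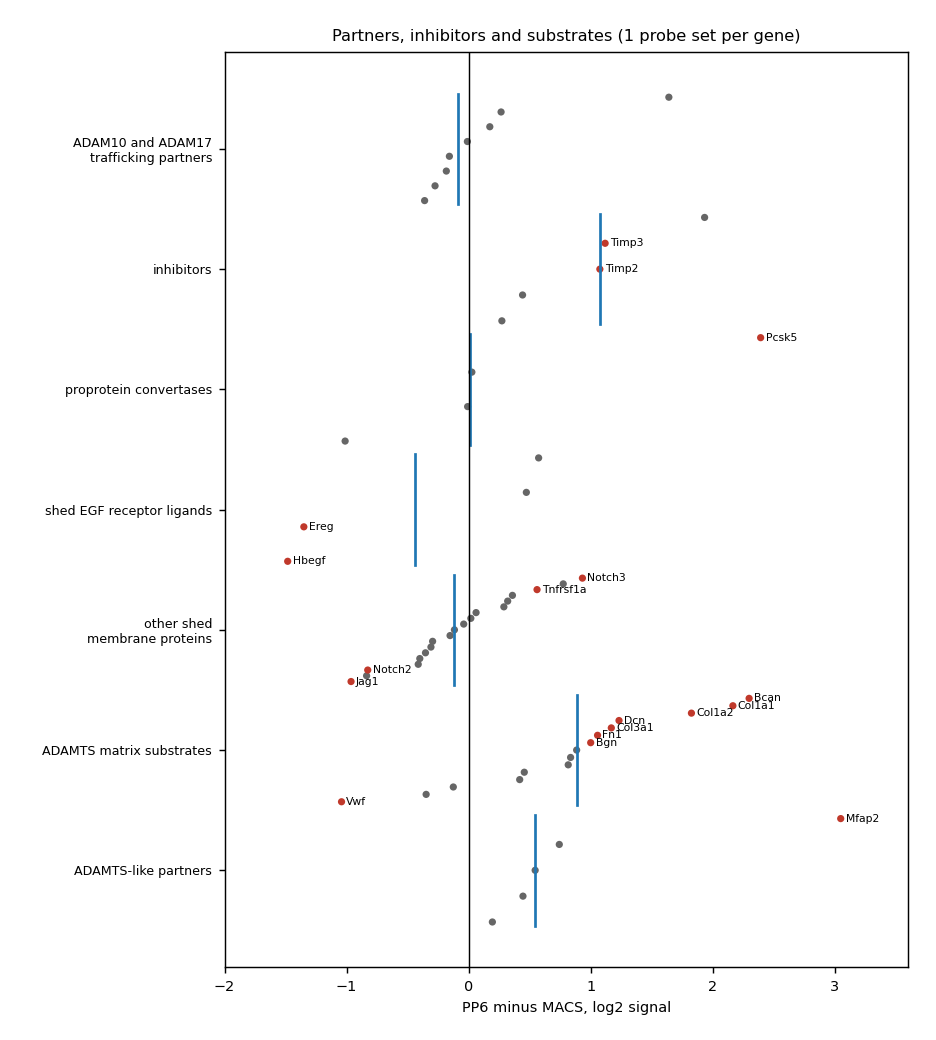
PP6 minus MACS difference in log2 signal (x axis) of tested genes in 7 lists of partners, inhibitors, convertases and substrates (rows; 1 point per gene, vertical order within a row for legibility only). Vertical lines are list medians, from -0.44 for shed EGF receptor ligands to 1.08 for inhibitors, and red named points have an unadjusted p under 0.05 in limma.

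Several members are neighbours in the genome by the RefSeq gene order. Adamts1 and Adamts5 lie next to each other on chromosome 16 and both were tested. A run of Adam18, Adam3, Adam5, Adam32 and Adam9 lies on chromosome 8, of which Adam9 was bright in every culture while the other 4 lay below the array median in all cultures. Further runs of testis ADAMs on chromosome 8, and the pairs Adam6b with Adam6a, Adam1b with Adam1a and Adamts15 with Adamts8, held no tested probe set.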

How the data were processed

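The deposited value tables give linear signal intensity, made by the authors with MAS5 per the submitters' processing notes, in a version not given in the sources used here. They carry no detection calls. Probe sets were named through the array annotation, with symbols updated to RefSeq (GRCm38.p6). Signals were scaled to a common 2% trimmed mean per array type and log2-transformed, and both array types were stacked after 64 control probe sets of each were left out. The 100 probe sets on both types kept their MOE430A value. The difference of PP6 from MACS was fitted on 2 cultures per group with lmFit and eBayes (intensity trend, two-sided) of limma 3.58.1 under R 4.3.3. Benjamini-Hochberg adjustment ran over 23963 tested of 45037 probe sets. An exact permutation test of 2 against 2 cultures cannot go below p = 0.333. Only 4 arrays of each type limit the precision. The procedure was tested on simulated data. Every error printed as ± is the standard error of the limma difference. All tested members were named, and 1 probe set stood for a gene of a list: the one with the highest mean signal among those that passed, taken from MOE430A where that array had one. The members and lists were chosen with earlier results of these data known. Alternatives were other scalings, pseudocounts (128.0 and 200.9), filters and probe set choices, a replicate block, each array type alone, and each culture left out.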

Additional observations from a re-analysis of the deposited data

How the results depend on the processing

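No member passed the adjusted threshold in limma under any of the 15 other settings. The 3 members higher in PP6 at an unadjusted p under 0.05 became 2 to 9 when 1 culture was left out, with 9 without MACS replicate 3. The 0 lower members became 0 to 1 with a culture left out, the 1 being Adamtsl1 without PP6 replicate 2, and 1 with no filter, an Adamts18 probe set below the array median. The median difference of 0.26 ranged from 0.12 to 0.41 with a culture left out. Centring on the array median lowered it to 0.14 and moved the median of all probe sets by -0.12. With the replicate number as a block, 3 members were higher and 0 lower, and 0 passed the adjusted threshold. Deviations of same-numbered cultures correlated at -0.033 across the tested probe sets. With 2 cultures per group, this value cannot decide whether same-numbered cultures shared an animal or a preparation. The labels used here do not say. Among all probe sets, the adjusted threshold was passed by 5 with a filter at the 75th percentile, 23 with a floor at the array median, 71 with each array type alone, 2 with the block and 1 without PP6 replicate 2, and by 0 in the comparison as reported.

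The sign of 18 of the 38 probe sets held throughout and that of the other 20 turned at least once. A floor turned Adam15 1416080_at to 0.12, Adamts12 1446666_at to 0.14 and Adamtsl5 to 0.071. Median centring turned Adam33 to -0.066 and Adam4 to -0.12, quantile normalization turned Adam4 to -0.019, and a pseudocount turned Adamts10 to 0.0082. With 1 culture left out, ranges that crossed 0 were -0.17 to 0.0071 for Adam10, -0.32 to 0.015 for Adam12 1421172_at, -0.92 to 0.35 for Adam15 1416080_at, -0.67 to 0.52 for Adam17 1421859_at, -0.26 to 0.73 for Adam19, -0.11 to 1.30 for Adam22, -1.28 to 1.16 for Adam23 1459642_at, -0.18 to 0.30 for Adam33 and -0.21 to 0.21 for Adam4. They were -0.041 to 0.81 for Adamts1, -0.56 to 0.89 for Adamts4 1452595_at, -0.067 to 2.78 for Adamts6, -0.59 to 0.40 for Adamts9 1431399_at, -0.77 to 0.050 for Adamts9 1430352_at, -0.53 to 0.53 for Adamts10, -0.63 to 0.56 for Adamts12 1446666_at and -0.55 to 0.31 for Adamts16 1439604_at. For Adamtsl1 they were -1.04 to 0.18 on 1437429_at and -0.13 to 0.83 on 1430313_at, and for Adamtsl5 -0.77 to 0.16. The cause of these changes was not tested. With 1 culture left out, the lone culture of its group was assumed to vary like the other group. Dim signals could not be called present or absent, as the tables used here hold no detection calls.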

Other observations

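Relatives that fall outside the naming rule were looked at after their values were seen. Thsd7a, which codes for a membrane protein with thrombospondin repeats, had log2 signals of 10.70 and 10.76 in MACS and 9.99 and 9.55 in PP6 on 1456130_at. Its difference was -0.96 ± 0.33, with an unadjusted p of 0.0292 and an adjusted p of 0.394 in limma, and the groups did not overlap. A second Thsd7a probe set, 1456721_at, differed by -0.47, with overlapping groups. The 2 tested probe sets of Thsd4, a fibrillin-binding relative of the ADAMTS-like genes, differed by 0.02 and 0.13, and Thsd1 differed by -0.09. Adamdec1, an ADAM-like protease of macrophages and dendritic cells, lay below the array median in every culture, with 8.22 and 8.91 in MACS and 9.18 and 9.17 in PP6.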
